A study of Mus musculus with 6 samples.

Results

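Chromosome 3 was described through all of its 100-CpG windows in an enzymatic methyl-seq (EM-seq) survey of mouse embryonic stem cells (mESCs) sorted into G1 and G2/M. It was chosen because its mean difference in CpG methylation between G1 and G2/M was the largest of the 19 autosomes. It was thus selected on the 6 measured columns themselves, and every window placed on it was kept. This gave 20659 of the 359192 windows measured across the genome, against 324121 on the other autosomes. The cells were E14TG2a mESCs of strain 129/Ola, grown on gelatin in serum with LIF, pulsed with EdU, fixed in ethanol and sorted by EdU and DNA content, and neither group carried a mutation or a drug treatment that the other lacked. G1 and G2/M were each represented by 3 biological replicates, named replicates 1, 2 and 3 and matched by number. All cells came from 1 line, so the replicates are samples of that line. The p-values concern only how far these libraries agree in sign. DNA alone was measured, and the identity of the cells was not checked through marker genes.

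CpG methylation is copied after replication, when the new strand of each CpG is still unmethylated. DNMT1, guided by UHRF1, recognises these hemimethylated sites and restores the mark with a delay, so that DNA copied late in S phase has less time to regain it before the cell divides. Late-replicating DNA is in general gene-poor, rich in A and T and poor in CpG. The comparison of G1 with G2/M asks how much methylation is regained after division. EM-seq reads 5-methylcytosine and 5-hydroxymethylcytosine together.

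A 100-CpG window is defined by a number of CpG cytosines over both strands, so that short windows are dense in CpGs. Most windows followed this, and the longest ones, described further on, held more CpGs. The windows of chromosome 3 held a median of 51 CpG dinucleotides, that is 102 CpG cytosines, and reached from 3000174 to 159924872 on GRCm38. The 3 stretches printed here, each of 200 bases from RefSeq's GRCm38.p6 sequence on the plus strand with every CpG in capitals, set a gene start beside a window of median length and a very long one. The first lies directly before the start of Sox2, a transcription factor gene required for pluripotency, at chr3:34650205-34650404 and holds 28 CpGs. The second is the centre of the window of median length, at chr3:69380561-69380760 in an intron of Ppm1l, and holds 1 CpG. The third is the centre of the longest window without unknown bases, at chr3:15861502-15861701 between genes, and holds 2 CpGs.
before Sox2: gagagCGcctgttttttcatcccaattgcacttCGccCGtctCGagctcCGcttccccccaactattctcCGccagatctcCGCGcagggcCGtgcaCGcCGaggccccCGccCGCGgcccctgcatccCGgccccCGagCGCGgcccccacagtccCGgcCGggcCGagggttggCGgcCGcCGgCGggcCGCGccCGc
median-length window: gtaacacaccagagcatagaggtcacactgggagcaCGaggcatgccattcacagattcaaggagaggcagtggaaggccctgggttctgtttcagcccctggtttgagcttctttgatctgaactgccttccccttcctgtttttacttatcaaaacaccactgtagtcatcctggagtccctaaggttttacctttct
longest window without unknown bases: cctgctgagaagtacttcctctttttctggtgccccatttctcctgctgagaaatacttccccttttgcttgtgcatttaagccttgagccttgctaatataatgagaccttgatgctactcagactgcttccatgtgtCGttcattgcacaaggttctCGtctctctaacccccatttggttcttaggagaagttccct

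The 3 loci also differed in methylation, although the stretch before Sox2 lay between windows and had no value itself. The last window before the start of Sox2 held 5.71%, 3.26% and 3.23% in G1 against 4.65%, 3.03% and 6.58% in G2/M, and the first window after it was listed at 0% in all 6 libraries. The window of median length, chr3:69377411-69383911, held 81.2%, 61.1% and 79.9% in G1 against 71.1%, 70.8% and 84.9% in G2/M, so its groups overlapped. The 188150-bp window around the third stretch held 70.7%, 65.3% and 61.4% in G1 against 49.0%, 58.8% and 65.5% in G2/M. In the second and the third the replicates varied by more than the group means differed, and the chromosome is described through means over many windows.

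Over the windows of chromosome 3, CpG methylation averaged 64.5%, 62.0% and 70.2% in the 3 G1 libraries against 62.7%, 60.8% and 69.3% in their G2/M partners, in order of replicate number. G1 was higher in each of the 3 pairs, whereas the groups overlapped because the replicates differed in level. The matched differences were 1.76, 1.12 and 0.850 percentage points, with a mean of 1.24 ± 0.468 (SD, n = 3 pairs). The group means were 65.5% ± 4.21 (SD, n = 3) and 64.3% ± 4.46 (SD, n = 3), so the difference was smaller than the spread between replicates, and its direction rests on the matched pairs. Because this contrast chose the chromosome, it is given as a description without a test.

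The other autosomes had matched differences of 1.21, 0.578 and 0.663 percentage points, with a mean of 0.818. Chromosome 1, which ranked next, stood just outside the choice at 1.11, followed by chromosome 16 at 1.09, and chromosome 11 was lowest at 0.330. In single pairs chromosome 3 ranked 1, 1 and 3 among the 19 autosomes, so the third pair placed others above it. It also ranked 1 when medians replaced means, at 1.44, and when windows were weighted by length, at 1.57.

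**Figure D1:**
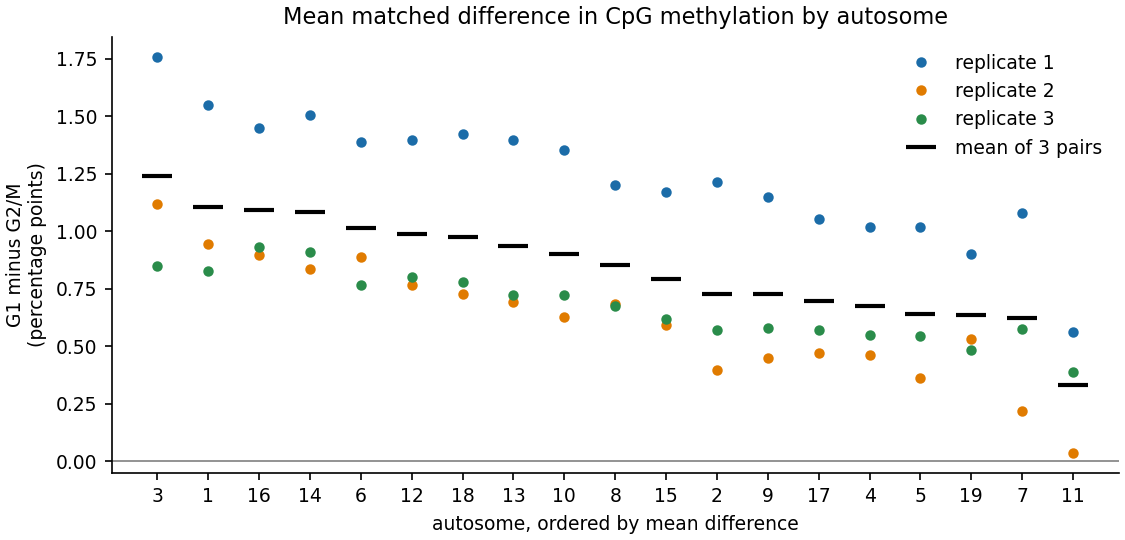
Mean G1 minus G2/M difference in CpG methylation (percentage points) over the windows of each of the 19 autosomes, ordered by the mean of the 3 matched pairs (bars), with each pair as a point. Chromosome 3 is at the left with a mean of 1.24, chromosome 11 at the right with 0.330, and the 3 points of chromosome 3 spread from 0.850 to 1.76.

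In sequence, chromosome 3 lay at one end of the autosomes. Its windows had the longest median, 6501 bp against 5647 bp over the other autosomes, and 22.6% of them were longer than 10 kb, the highest share. Its windows also had the lowest mean GC content, at 41.9%, and the chromosome held 1004 protein-coding genes, or 6.27 per Mb, the 4th-lowest density. Across the 19 autosomes the mean difference ran with GC content (Pearson's r = -0.955, and -0.945 without chromosome 3), median window length (0.888 and 0.866), gene density (-0.837 and -0.843) and the level of methylation over both phases (0.826 and 0.833). These are descriptions over 19 chromosomes that share the same 6 libraries.

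At matched composition the distance to the other autosomes was smaller. The mean difference of chromosome 3 exceeded that of the other autosomes by 0.424 percentage points over all windows (0.546, 0.541 and 0.186 in the 3 pairs). After matching to 10 classes of window length, the excess was 0.279 (0.390, 0.366 and 0.0809) and chromosome 3 still ranked 1, although 7 in replicate 3. With 10 classes of GC content in its place, the excess was 0.169 (0.266, 0.232 and 0.00749) and chromosome 3 ranked 2. In replicate 3 little of the excess was left once composition was matched.

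The level of methylation, averaged over both phases, comes from the same 6 columns as the choice, and across the autosomes it ran with the difference between phases. Chromosome 3 is therefore set against the other autosomes in level without a test. In every one of the 6 libraries chromosome 3 was more methylated than the other autosomes, by 1.54, 1.35 and 1.17 percentage points in G1 and by 0.997, 0.809 and 0.988 in G2/M. The mean of 1.14 ± 0.269 (SD, n = 6 libraries) was the excess in level over all windows, and in each pair it was larger in G1. Some single autosomes were higher still. Chromosome 3 ranked 4 among the autosomes in level, at 64.9%, below chromosomes 13 (65.7%), 1 (65.1%) and, narrowly, 18. In the excess at matched window length it ranked 6, with chromosome 10 at 1.31 and chromosome 13 at 1.24. At matched window length the level of chromosome 3 was higher by 0.486 ± 0.182 (SD, n = 6), again in 6 of 6 libraries and more so in G1. This direction turned when GC content was matched in place of length, with chromosome 3 then 0.339 percentage points below the other autosomes, or -0.339, in 6 of 6 libraries.

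Within the chromosome, long windows carried the larger differences between phases. In windows under 3 kb, which include CpG islands at gene starts, methylation was 40.4%, 39.3% and 44.5% in G1 against 39.3%, 38.9% and 44.5% in G2/M. In the 4666 windows over 10 kb the level was 64.6%, 61.3% and 69.5% in G1 against 61.8%, 59.3% and 67.9% in G2/M. The mean matched difference was 0.557 ± 0.508 (SD, n = 3 pairs) in the short windows and 2.14 ± 0.574 in the long ones, so it was larger in long windows by 1.66, 1.54 and 1.54 percentage points in the 3 pairs. The contrast between long and short windows was nearly the same in the 3 pairs, although the pairs differed in the mean over the whole chromosome.

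The level also separated the classes. Long windows were more methylated than short windows by 22.9 percentage points ± 1.62 (SD, n = 6 libraries), in 6 of 6 libraries. A two-sided exact sign-flip permutation test over the 6 libraries gave p = 0.03125, and 0.03125 after Benjamini-Hochberg adjustment over 4 tests of level, the smallest p that 6 libraries allow. The 4 include the 2 tests against the other autosomes, which are not used. All 6 libraries read the same windows of 1 line, in the columns that chose the chromosome. The p therefore shows only that the libraries agree in sign. With same-numbered libraries taken as 1 matched unit, the exact sign-flip p was 0.25, the smallest that 3 units allow. Neither p is used as support. The level did not keep rising with length: it was 41.2% under 3 kb, 66.0% from 3 to 5 kb, 68.8% from 5 to 7.5 kb, 67.6% from 7.5 to 10 kb, 64.7% from 10 to 15 kb and 60.8% from 15 to 20 kb. The difference between phases followed another course. It was 0.647 from 3 to 5 kb, 0.958 from 5 to 7.5 kb, 1.67 from 7.5 to 10 kb, 2.12 from 10 to 15 kb and 2.03 from 15 to 20 kb.

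**Figure D2:**
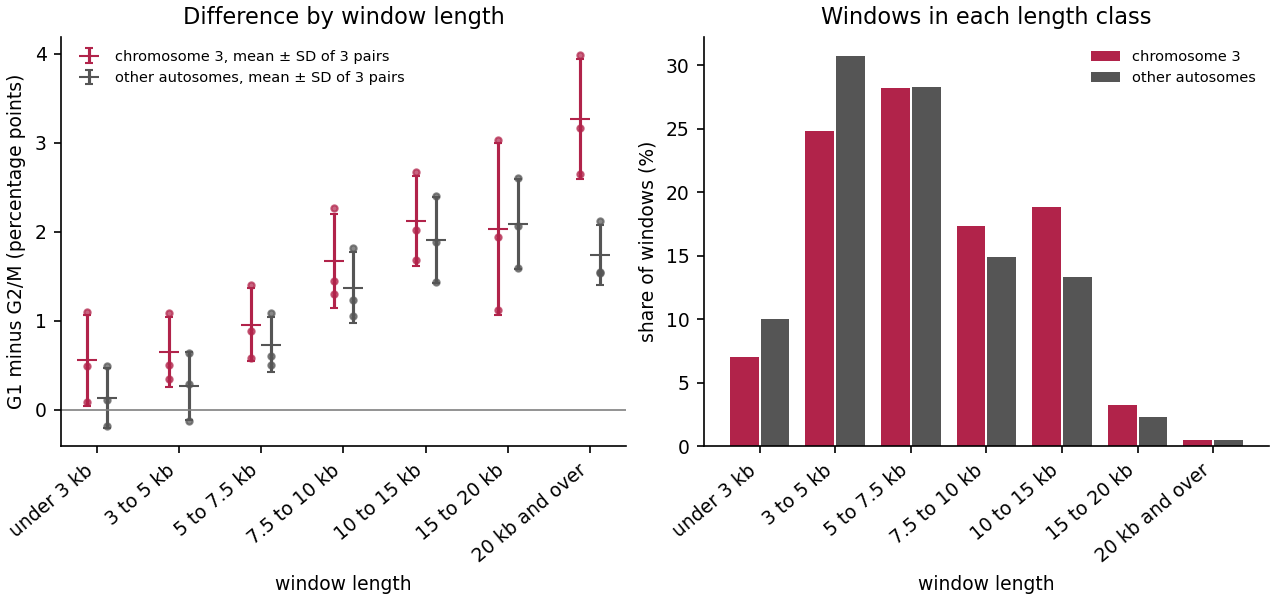
Left, mean G1 minus G2/M difference (percentage points) of chromosome 3 and of the other autosomes in 7 classes of window length, with each matched pair as a point, the mean as a bar and the SD of the 3 pairs as the error bar. Right, the share of windows (%) in each class, where 18.9% of the windows of chromosome 3 and 13.3% of the others lie from 10 to 15 kb.

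The other autosomes showed smaller differences in 6 of the 7 classes of length, at 0.138 under 3 kb, 0.267 from 3 to 5 kb, 0.734 from 5 to 7.5 kb, 1.37 from 7.5 to 10 kb and 1.91 from 10 to 15 kb. From 15 to 20 kb they were at 2.09 and chromosome 3 at 2.03. Pair by pair, chromosome 3 was above the other autosomes in all 3 pairs in 4 of the 7 classes, by 0.454, 0.622 and 0.0642 from 3 to 5 kb and by 0.270, 0.134 and 0.241 from 10 to 15 kb. In the classes under 3 kb, from 5 to 7.5 kb and from 15 to 20 kb the pairs lay on both sides. The distance was widest in the 101 windows of chromosome 3 of 20 kb and over, with 3.26 ± 0.672 (SD, n = 3 pairs) against 1.74 ± 0.338 on the other autosomes.

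The longest windows were not the CpG-poorest ones. Of the 101 windows of 20 kb and over, 88 held more than 60 CpG dinucleotides, with a median of 156, so most held more CpGs than the definition of a window counts. Of the 20659 windows, 18904 (91.5%) held 45 to 60 CpGs, and over these alone the mean difference of chromosome 3 was 1.21 percentage points and ranked 1. The longest window, chr3:40504441-40947140, spans 442700 bp and 3225 CpGs, 7 protein-coding genes among them Plk4, the kinase of centriole duplication, and 100000 unknown bases. Other windows over 100 kb lay over the pancreatic amylase genes Amy2a1 to Amy2a4, over Hsd3b4 of steroid synthesis and over part of Fgf2, whose start lay in no window. Of the 9 windows over 100 kb, 5 contained stretches of unknown bases.

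GC content ordered the windows in the same way. Windows of chromosome 3 under 38% GC had matched differences of 2.57, 2.07 and 1.59 percentage points, with a mean of 2.08. The mean was 1.56 from 38% to 42%, 0.734 from 42% to 46%, 0.578 from 46% to 50% and 0.129 at 50% and over. The other autosomes had 2.10, 1.31, 0.599, 0.170 and -0.0387 in these classes, so chromosome 3 and the rest were level in the poorest class. Under 38% GC lay 18.2% of the windows of chromosome 3 and 11.6% of the others, and at 50% and over 4.14% and 11.5%.

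Distance from genes gave a further order. Windows centred within 5 kb of a protein-coding gene start had differences of 0.846, 0.238 and -0.304 percentage points in the 3 pairs, so the pairs disagreed in sign there. Between 5 and 50 kb the mean was 0.834, from 50 to 200 kb 1.31 and from 200 to 500 kb 1.82. Beyond 500 kb the 3 pairs gave 3.09, 2.23 and 1.78, with a mean of 2.36. These far windows made up 10.8% of chromosome 3 and 7.28% of the other autosomes, where their mean was 2.26.

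By annotation (GENCODE vM21), 49.8% of the windows were intergenic, 37.9% intronic, 3.93% exonic, 3.98% at promoters (from 1000 bp before to 100 bp after a start) and 4.41% at transcript ends. Intergenic windows had a mean difference of 1.52 ± 0.598 (SD, n = 3 pairs) and intronic windows 1.12 ± 0.441. The difference was 0.819 ± 0.283 in exons, 0.511 ± 0.134 at promoters and 0.294 ± 0.174 at transcript ends. All 3 pairs were above 0 in each class on chromosome 3. The other autosomes had the same order at lower values, from 1.12 in intergenic windows to 0.219 at transcript ends. By level, the 573 windows of chromosome 3 under 20% methylation had a difference of -0.0432 with pairs on both sides of 0. The 15446 windows from 60% to 80% had one of 1.36. In the same classes the other autosomes had 0.0566 and 0.956.

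Along the chromosome the difference changed from megabase to megabase. Windows and genes were placed in 157 bins of 1 Mb by their centres, with 45 to 249 windows in a bin and a median of 122. In 118 bins (75.2%) G1 was above G2/M in all 3 pairs, where the share over the 2368 autosomal bins was 61.2%. In 3 bins (1.91%) G1 was below G2/M in all 3 pairs, where the autosomal share was 4.69%. These shares come from the contrast that chose the chromosome and support nothing further.

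The mean difference of a bin ran from -0.964 to 3.78 percentage points with a median of 1.45, and 45 bins exceeded 2 points. Of the 237 autosomal bins in the highest decile, 27 (11.4%) lay on chromosome 3, which holds 6.63% of the bins, and they made up 17.2% of its own bins. The longest run of bins with G1 higher in all 3 pairs reached from 66 to 85 Mb and spanned 19 bins, and the next from 18 to 30 Mb spanned 12. Neighbouring bins resembled each other, with a correlation of 0.358 at a distance of 1 Mb, 0.179 at 2 Mb and 0.0779 at 5 Mb.

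**Figure D3:**
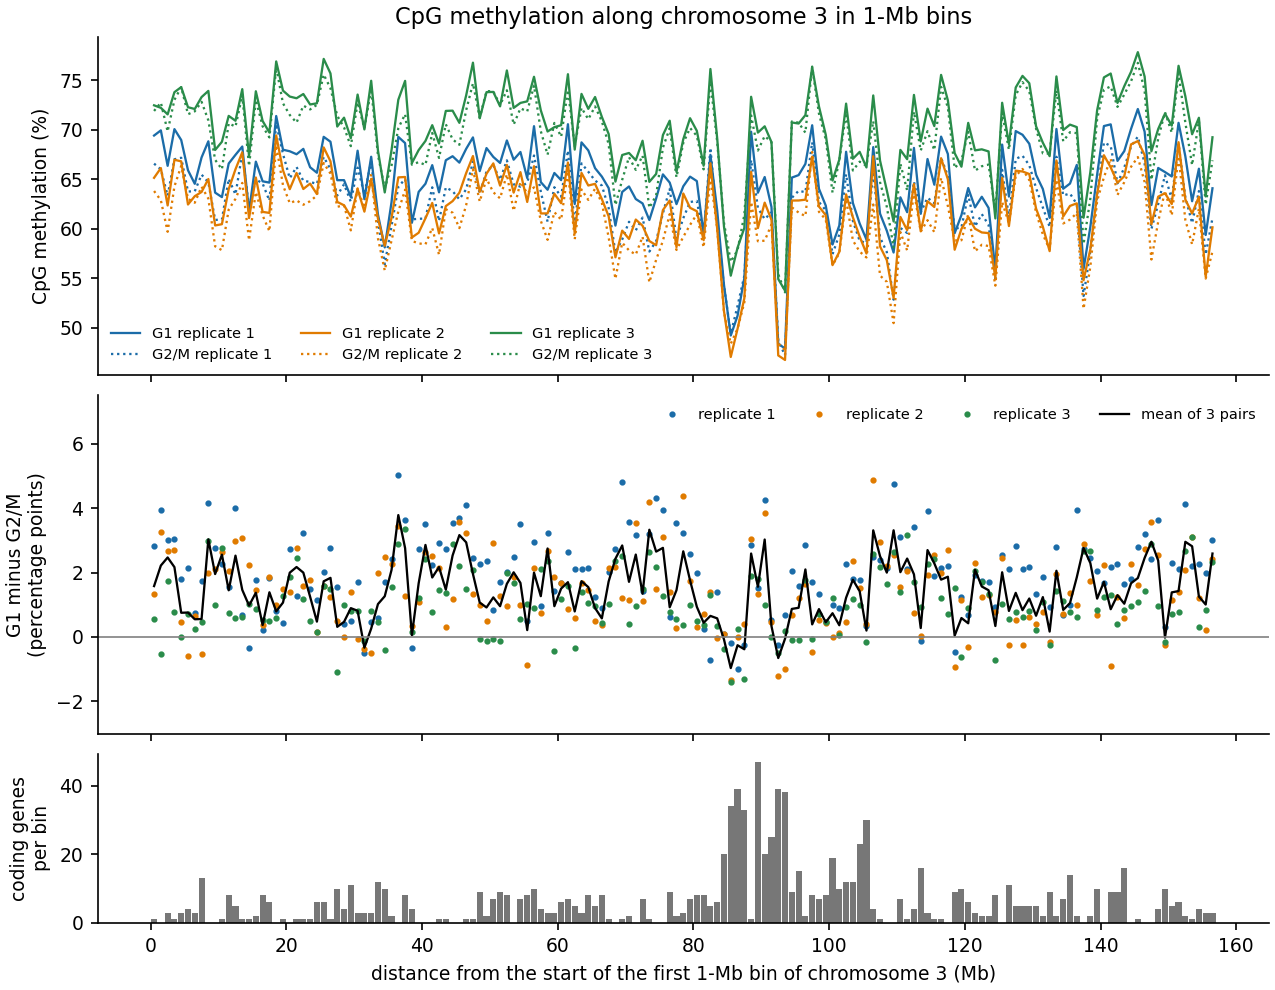
Top, mean CpG methylation (%) in the 157 bins of 1 Mb of chromosome 3, with a line for each library. Middle, the matched G1 minus G2/M difference (percentage points) of each bin, with each pair as a point and their mean as a line. Bottom, the number of protein-coding genes centred in each bin, where the gene-dense stretch holds the lowest levels and most bins below 0. The bins from 34 Mb (-0.332) and from 152 Mb (-0.0201) lie below 0 outside it.

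The replicate pairs shared part of this profile. Over the 157 bins the differences of the pairs correlated with r = 0.544 (replicates 1 and 2), 0.504 (1 and 3) and 0.488 (2 and 3). The median of 0.504 ranked 14 among the 19 autosomes, whose values ran from 0.387 to 0.634, so the profile of chromosome 3 was not among the most alike between pairs. Over the same bins the mean difference correlated with GC content (r = -0.750), mean window length (0.702), the number of protein-coding genes (-0.546) and, weakly, with the level of methylation (0.189). The bins share all 6 libraries and neighbours are alike, so no p was computed.

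**Figure D4:**
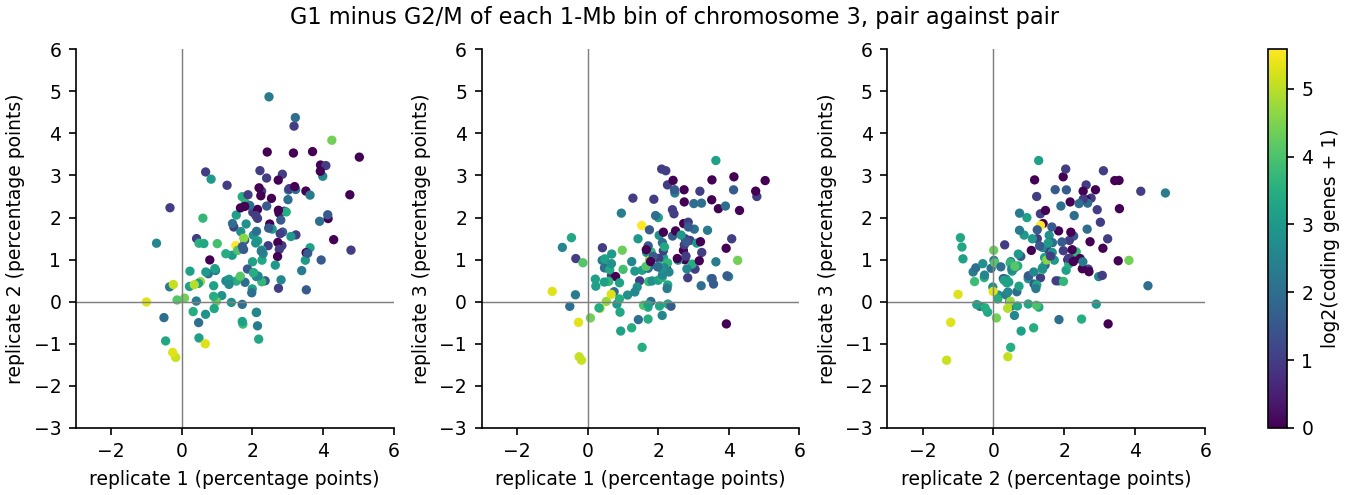
The G1 minus G2/M difference (percentage points) of each of the 157 bins of chromosome 3 in one matched pair against another, for the 3 combinations of pairs, with points coloured by log2(protein-coding genes + 1). Most points lie above 0 on both axes, and bins with many genes lie towards the lower left.

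Bins without a protein-coding gene stood at the upper end. In the 25 such bins methylation was 66.3%, 63.1% and 70.8% in G1 against 63.3%, 60.7% and 69.2% in G2/M, and G1 was higher in all 3 pairs in 24 of them. The share higher in all 3 pairs was 75.2% over all bins of chromosome 3 and 61.2% over the 2368 autosomal bins. These counts use the contrast that chose the chromosome, and the other autosomes were not split by gene number. The mean difference of the 25 bins was 2.32 ± 0.663 (SD, n = 3 pairs). It was 1.65 ± 0.473 in the 59 bins with 1 to 4 genes, 0.976 ± 0.487 in the 44 with 5 to 9 and 0.820 ± 0.460 in the 18 with 10 to 19. In the 11 bins with 20 genes or more, methylation was 54.7%, 53.0% and 61.0% in G1 against 54.3%, 52.9% and 61.1% in G2/M, with a difference of 0.128 ± 0.250 and pairs on both sides of 0.

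Split at the median of 4 genes, the 84 gene-poor bins exceeded the 73 gene-rich bins in difference by 1.08, 1.14 and 0.877 percentage points in the 3 pairs. In level the gene-poor bins were higher by 1.56 ± 0.666 percentage points (SD, n = 6), in 6 of 6 libraries (two-sided exact sign-flip permutation test, p = 0.03125, adjusted 0.03125). Here too the p shows only that libraries reading the same windows agree in sign. With same-numbered libraries paired into 3 units the exact sign-flip p was 0.25, and neither p is used as support. The direction also depends on how windows are averaged: with medians over windows the gene-poor bins were lower, at -1.51, with weighting by length at -1.0, and among windows from 20% to 80% methylation the value was 0.141 (exact sign-flip permutation test, p = 0.59375).

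The bin with the largest difference, from 39 to 40 Mb, holds no protein-coding gene and follows the bin of Fat4, a large protocadherin gene. Its 106 windows averaged 69.3%, 65.2% and 73.0% in G1 against 64.2%, 61.8% and 70.1% in G2/M. The matched differences of 5.03, 3.44 and 2.88 percentage points placed it 4 among the 2368 autosomal bins. Each G1 library was above its partner, while the groups overlapped.

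The bin from 76 to 77 Mb holds Fstl5, a secreted follistatin-like protein, and averaged 60.9%, 58.8% and 64.7% in G1 against 57.7%, 54.6% and 62.1% in G2/M, with differences of 3.18, 4.17 and 2.62. From 112 to 113 Mb, again without a protein-coding gene, the values were 57.6%, 53.0% and 60.7% in G1 against 52.9%, 50.5% and 58.1% in G2/M. The bin from 109 to 110 Mb, with Vav3, an exchange factor for small GTPases, Ntng1, a guidance protein of axons, and the mitochondrial carriers Slc25a24 and Slc25a54, had differences of 2.47, 4.87 and 2.58 over 45 windows, the fewest of any bin. In these 4 bins the smallest single pair difference was 2.47 percentage points, and their windows averaged 7266 to 13619 bp.

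At the other end, the bin from 88 to 89 Mb holds 34 protein-coding genes, among them Lmna of the nuclear lamina, Mef2d, a transcription factor of muscle and neurons, Cct3 of the chaperonin and Smg5 of nonsense-mediated decay. Its 223 windows averaged 49.2%, 47.1% and 55.3% in G1 against 49.4%, 48.4% and 56.7% in G2/M, with differences of -0.172, -1.33 and -1.39 percentage points. The bin from 95 to 96 Mb, with Psmd4 of the proteasome, the H3K9 methyltransferase gene Setdb1 and the survival factor Mcl1, averaged 48.4%, 47.2% and 54.9% in G1 against 48.7%, 48.4% and 55.4% in G2/M. Its differences were -0.257, -1.21 and -0.492. In both bins every G2/M library was above its matched G1 library, by little in replicate 1.

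The bin from 90 to 91 Mb, which includes the first S100a genes for calcium-binding proteins, had differences of -0.239, 0.408 and -1.31 and so no common direction. The bin of Sox2, from 34 to 35 Mb, also holds Fxr1, an RNA-binding protein, and Dnajc19 of mitochondrial import. Its 189 windows averaged 63.0%, 61.7% and 70.0% in G1 against 63.5%, 62.1% and 70.1% in G2/M, with differences of -0.504, -0.380 and -0.112. With 3 protein-coding genes it was the only bin with G2/M higher in all 3 pairs that was not gene-dense. With medians over windows in place of means, the bins at 34, 88 and 90 Mb turned to 0.350, 0.139 and 0.327.

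Gene number and difference parted company in the epidermal differentiation complex, the cluster of genes for the outer layer of the skin. The bins from 87 to 91 Mb, with 20, 34, 39 and 33 protein-coding genes, had mean differences of -0.0748, -0.964, -0.255 and -0.380 percentage points. The bin from 91 to 92 Mb, with 1 gene, was at 2.59. The bin from 92 to 93 Mb holds 47 protein-coding genes, the most on the chromosome, mainly of the Sprr and Lce families, yet its differences were 1.53, 1.33 and 1.81, and the next bin with Flg, Flg2 and Hrnr was at 4.25, 3.84 and 0.981. From 94 to 97 Mb the means returned to 0.338, -0.653 and -0.0536.

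Window length and GC content changed at the same borders. The bins at 92 and 93 Mb had windows of 12816 and 10553 bp on average and 39.8% and 41.9% GC, against 4329 bp and 48.6% at 88 Mb. Their levels were 63.7% and 64.6%, against 51.0% at 88 Mb, 50.5% at 95 Mb and 49.5% at 96 Mb, the lowest on the chromosome. The highest level, 72.2%, was in the bin from 21 to 22 Mb, which holds no protein-coding gene and had a difference of 0.794.

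Gene families in clusters were then read window by window. The 20 windows over the Lce genes, for late envelope proteins of the skin, held 63.9% on average with matched differences of 1.23, 0.806 and 2.36 percentage points. The 37 windows over the vomeronasal receptor genes Vmn2r1 to Vmn2r7 held 69.0%, with 1.23, 2.45 and 0.521. These 2 of the 12 families had G1 higher in all 3 pairs, a share no larger than the 21.9% of 830 gene bodies on the chromosome that did so. Sprr (0.704), S100a (-0.0101), Flg (0.778), Car carbonic anhydrases (0.224), Fabp fatty-acid binding proteins (-0.275), Adh alcohol dehydrogenases (0.838), Amy (-0.0696), Gbp guanylate-binding proteins (1.02), Gstm glutathione transferases (0.308) and the histone genes Hist2 (1.15) had pairs on both sides of 0. The 7 windows over the Hist2 cluster had the lowest level, at 27.6%. Amy, Sprr and Hist2 include near-identical copies, so their values are uncertain, and they rest on 8, 15 and 7 windows. Lce and Vmn2r are clusters of related genes as well, and the same caution holds for them. Flg rests on 4 windows, with pairs of 8.57, -3.32 and -2.91.

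Genes were also read by role, at their starts and inside their bodies. Of the 1004 protein-coding genes of chromosome 3, 787 had their start inside a window, and these start windows had a median level of 47.9%, with 195 under 20%. The other 217 starts (21.6%) lay between windows, and the 500 bases to either side of them held a median of 81.9 CpGs per kb against 27.0 at starts inside windows. The stretches between windows made up 2.29% of the known bases and 3.86% of the CpGs. The table used here therefore leaves out many of the gene starts with the densest CpGs.

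Among genes of pluripotency, signalling and DNA modification, the starts of Sox2, Tet2, a 5-methylcytosine oxidase, Fgf2, Lef1 of Wnt signalling, Skil, Tbl1xr1 and Foxo1 had no window. The start window of Nras, a Ras GTPase, held 0%, 0% and 4.17% in G1 against 5.17%, 2.27% and 16.0% in G2/M. In their bodies, the 6 measured genes ranged from 39.5% in Tet2 to 71.1% in Nras, and 0 of the 6 had the same direction in all 3 pairs. The background for this count was 21.9% of 830 gene bodies with G1 higher in all 3 pairs and 9.40% with G1 lower.

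Lineage transcription factors, with the developmental gene Mab21l1 in the same list, were low at many starts. Of the 11 start windows measured, 5 were under 20%, among them Neurog2, a neurogenic factor, at 0.303%, and Mab21l1 at 12.9%. The start window of Bhlhe22 held 38.4%, 38.8% and 40.9% in G1 against 53.6%, 45.1% and 61.9% in G2/M, and that of Zfhx4 17.1%, 29.0% and 37.1% against 11.8%, 25% and 26.6%. The first was lower in G1 in all 3 pairs and the second higher. In all, 2 of the 11 starts, Zfhx4 and Mab21l1, were higher in all 3 pairs and 1 was lower. Over all start windows 12.1% were higher and 8.01% lower.

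Inside their bodies, the lineage factors divided into short genes with little methylation, such as Bhlhe22 at 1.25% and Neurog2 at 3.82%, and long ones such as Mecom, a zinc-finger factor of blood stem cells, at 71.1%. Zfhx4 averaged 66.7%, 64.2% and 69.5% in G1 against 62.4%, 59.0% and 68.7% in G2/M, and Tbx15 58.1%, 55.5% and 63.4% against 55.0%, 53.1% and 62.4%. These 2 of the 11 bodies were higher in all 3 pairs and 0 were lower, near the background of 21.9% higher and 9.40% lower over all bodies.

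Of the 6 germline genes, 3 had a window at their start. Those of the meiotic genes Sycp1, of the synaptonemal complex, and Hormad1 held 50.0% and 48.1%, and that of Spata16, a sperm gene, 69.7%. Spata16 was at 66.4%, 75.2% and 91.3% in G1 against 65.8%, 56.1% and 63.5% in G2/M, higher in G1 in each pair but by only 0.605 points in the first. Cell cycle and housekeeping genes were mostly low. Of 6 start windows, 5 were under 20%, with Cks1b, a subunit of cyclin-dependent kinases, and Smc4 of condensin listed at 0% in all 6 libraries and Ccna2, cyclin A2, at 4.87%.

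The 17 listed long genes of the chromosome, many of them neuronal, had G1 above G2/M in most pairs. All 17 bodies were between 56.1% and 73.4% methylated. In 13 of the 17 G1 was higher in all 3 pairs and in 0 lower, where 21.9% of all bodies were higher and 9.40% lower, and the median difference was 2.14 percentage points, against 0.698 over all 830 bodies. Their bodies held a median of 55 windows, against 5 over all bodies, and means over more windows vary less. The 17 were picked by name with earlier results of these data known, and Fat4, Adgrl2 and Col11a1 among them are under 200 kb. Among all 53 measured genes over 200 kb, 32 were higher in all 3 pairs, 0 were lower and the median was 1.52. That share and that median were below those of the list.

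**Figure D5:**
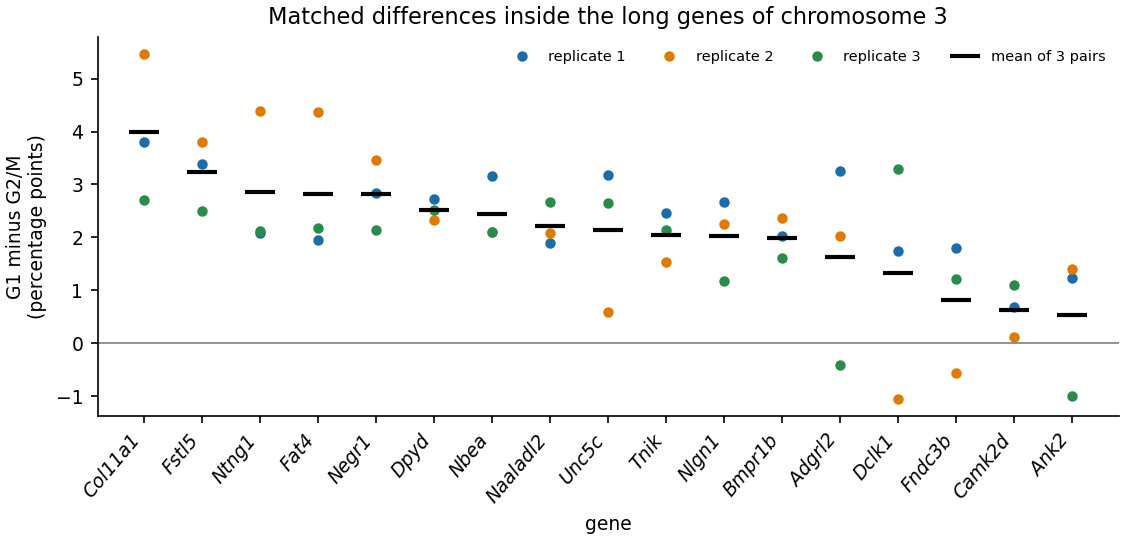
Matched G1 minus G2/M differences (percentage points) over the windows inside 17 long genes of chromosome 3, with each pair as a point and the mean as a bar, ordered by the mean. Means run from 3.99 in Col11a1 to 0.538 in Ank2, and the pairs of 13 genes are all above 0.

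Col11a1, a collagen of cartilage, had the largest of these differences. Its 19 windows averaged 56.6%, 57.1% and 60.6% in G1 against 52.8%, 51.6% and 57.9% in G2/M, which is 3.80, 5.46 and 2.71 percentage points. Fstl5 averaged 61.5%, 59.7% and 65.0% against 58.1%, 55.9% and 62.5% over 50 windows. Negr1, a neuronal adhesion protein, averaged 66.5%, 64.6% and 72.9% against 63.7%, 61.1% and 70.7% over 76 windows. In each of these 3 genes the pairs pointed the same way while the groups overlapped.

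Dpyd, the enzyme that starts pyrimidine breakdown, had pairs close together at 2.72, 2.33 and 2.52 over 91 windows, and Naaladl2 had 1.90, 2.07 and 2.67 over 119. The ion-channel anchor Ank2 (0.538), the doublecortin-like kinase Dclk1 (1.33), Adgrl2 (1.62), a latrophilin receptor, and Fndc3b (0.819) had pairs on both sides of 0. The start windows of the long genes did not share the order of the bodies. Of 13 measured starts, 0 were higher and 0 lower in all 3 pairs, where 12.1% and 8.01% of all start windows were, and that of Naaladl2 was listed at 0% in all 6 libraries.

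Of single windows, 929 (4.50%) had every G1 library above every G2/M library, where the share over the genome was 4.12%, and 338 (1.64%) every G1 library below, where it was 1.98%. Taking the matched pairs in place of the groups, 3721 windows (18.0%) were higher in G1 in all 3 pairs and 1743 (8.44%) lower, where the shares over the genome were 16.3% and 9.74%. With each library centred on its autosomal median, 1132 windows had every G1 library above and 892 every G1 library below, so the counts of the 2 directions then lay closer together. These counts use the contrast behind the choice and are descriptions. The largest G1-higher window, chr3:52597939-52601346 between genes, held 87.3%, 98.6% and 91.5% in G1 against 68.8%, 59.7% and 67.4% in G2/M. The next lay over the processed pseudogene Gm5846 at chr3:49378208-49382614, with 91.7%, 74.3% and 79.7% against 61.7%, 43.4% and 59.5%. The third, chr3:116004560-116007372 in an intron of the zinc transporter gene Slc30a7, held 60.1%, 61.3% and 40.2% against 25.5%, 31.4% and 24.0%.

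The windows higher in G2/M lay elsewhere. The largest, chr3:88361061-88365046, overlaps Smg5 and holds the start of Paqr6. It was at 15.2%, 25.5% and 34.1% in G1 against 48.8%, 60.3% and 50.3% in G2/M. Its difference of -28.2 percentage points was the lowest of the 787 start windows, and it falls in the bin with the lowest mean difference. A window over an exon of Hey1, a Notch target gene, at chr3:8662343-8664778 held 27.8%, 46.7% and 51.5% against 60.5%, 72.6% and 62.4%. An intergenic window at chr3:34923699-34928607, whose nearest protein-coding start is that of Sox2 at 275748 bp, held 50.4%, 48.8% and 58.3% against 74.4%, 73.9% and 74.2%. All 6 windows were picked as the most extreme of 20659, and the reads behind each value are unknown.

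The replicates differed along the whole chromosome. Whether this came from culture, sorting or library preparation was not tested. Averaged over both phases, replicate 3 was above replicate 1 in 157 of 157 bins, by a median of 6.0 percentage points, and above replicate 2 by 8.36, while replicate 1 was above replicate 2 by 2.30, also in every bin. The mean difference between phases, 1.24, was small beside these differences between replicates. Over the 20659 windows the libraries correlated with each other at 0.807 to 0.867, and over the bins at 0.931 to 0.982.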

How the data were processed

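EM-seq libraries of mESCs sorted into G1 (3 biological replicates) and G2/M (3) were analysed. Reads were trimmed by the authors with Trim Galore 0.6.4, aligned to GRCm38/mm10 with Bismark 0.22.1 and Bowtie2 and freed of duplicates. The deposited table gives the percent of methylated CpG in each 100-CpG window of each library. Its values carry no read counts, so the depth is unknown and no intervals were computed.

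Means over windows were taken per library, and differences were taken between same-numbered libraries, which the study treats as matched. Deviations of same-numbered libraries from their group means correlated at 0.0278 to 0.0457 over windows and 0.279 to 0.434 over 1-Mb bins, and those of differently numbered libraries at -0.0262 to -0.00642 and -0.372 to -0.0330. The deviations of each group sum to 0, so positive values for same-numbered libraries force negative ones among the others. The contrast is therefore partly built in, and over windows the same-numbered values were small. Bins needed 30 windows. Level was tested by two-sided exact sign-flip permutation tests over 6 libraries with Benjamini-Hochberg adjustment over 4 tests and a threshold of 0.05. The p-values of the 2 tests of chromosome 3 against the other autosomes are not used, since these levels come from the columns that chose it. Those of the 2 tests within the chromosome come from the same columns and are given without being used as support. Pairs at the same value counted as neither higher nor lower. Annotation came from GENCODE vM21, sequence from RefSeq GRCm38.p6. The scripts were tested on simulated data. Python 3.11.15, numpy 2.4.6, pandas 2.3.3 and scipy 1.17.1 were used.

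The members, gene lists and tests were chosen with earlier results of these data known. Named bins were the 4 with the largest difference of equal sign in all pairs and the 4 with the smallest. Named windows were the 3 most extreme in each direction without overlap between groups. Alternatives were medians, weighting by length, filters on level and on 0% or 100%, centring, other classes, lengths and bins, the replicate block and leaving out libraries. Matching on GC content, windows of 45 to 60 CpGs and leaving out matched pairs were added after seeing the data. Replication timing was not analysed here.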

Additional observations from a re-analysis of the deposited data

How the results depend on the processing

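Depth is unknown, so the reads behind single windows could not be weighed, and with 6 libraries no p under 0.03125 was possible. With all libraries kept, the excess of chromosome 3 over the other autosomes kept its direction in all alternatives run, and the level against the other autosomes did so except under matched GC content, where the value at matched length turned to -0.339. The gene-poor minus gene-rich level turned to -1.51 with medians and -1.0 with weighting by length, and was 0.141 among windows from 20% to 80% methylation. The cause was not tested. The long minus short difference between phases moved to 1.03 with medians, 1.40 among windows from 20% to 80%, 1.42 without windows listed at 0% or 100% and 1.49 with limits of 4 and 8 kb. Centring each library on its autosomal median, which removes a shared shift by construction, left a mean difference of 0.207, 892 windows with every G1 library lower and 67 bins with G1 higher in all pairs. With 2-Mb bins the gene-poor minus gene-rich difference was 0.836, the bins higher in all pairs numbered 70 and the correlation between pairs was 0.613, and with 0.5-Mb bins the latter were 207 and 0.369. The correlation was 0.474 among windows from 20% to 80%. The bins at 34, 88 and 90 Mb turned to 0.350, 0.139 and 0.327 with medians, and the last to 0.584 with weighting by length.

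With the replicate block, in which same-numbered G1 and G2/M libraries form 3 units, the level values stayed at 1.14, 0.486, 22.9 and 1.56, and the 2 tests within the chromosome had p = 0.25 each (exact sign-flip permutation test), the smallest that 3 units allow. Leaving out 1 library gave p = 0.0625 for both, the smallest that 5 libraries allow in an exact test, and the 4 level values ran from 1.06 to 1.21, 0.432 to 0.525, 22.5 to 23.4 and 1.36 to 1.71. Because the replicates differed in level, leaving out 1 library unbalanced the pairs. The mean difference then ran from -1.08 (without G1 replicate 3) to 3.76 (without G2/M replicate 3), and was also below 0 without G2/M replicate 2, at -0.482. The long minus short difference ran from 0.741 to 2.44, the gene-poor minus gene-rich difference from 0.796 to 1.24, the windows with every G1 library higher from 1179 to 4113 and those lower from 444 to 2076. Leaving out a whole matched pair gave 0.984 to 1.44 for the mean difference, 0.363 to 0.543 for the excess, 0.223 to 0.378 at matched length, 0.488 to 0.544 for the correlation between pairs and -0.774 to 0.0847 for the bin at 90 Mb.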
